A study of Homo sapiens with 4 samples.

Results

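CXCL1, a secreted chemokine once called GRO1, was followed through 1 bead-array probe, GI_4504152-S, of the 24350 GI probes on each array. The probe was selected by its identifier, with its signal and its change after FGF2 return already known. Its identification with the RefSeq record of CXCL1 was taken as given, because the deposited files and the gene table used here pair none of the identifiers with a gene and the probe's bases are not among the sources used here. No other probe on the arrays carries the same record number. Total RNA came from H9 cells, an established human embryonic stem cell line, on 4 single-colour Illumina arrays, with 2 FGF2-starved and 2 FGF2 re-stimulated samples in 2 experiments. All cells had spent 2 days on matrigel in medium conditioned by MEF (mouse embryonic fibroblasts), and then 24 h in unconditioned medium lacking FGF2 and containing 30 uM SU5402, a blocker of FGF receptor kinases. The starved samples were taken at that point. The re-stimulated samples were washed extensively and were then kept for 4 h in unconditioned medium with FGF2 at 40 ng/ml. Drug removal, washing, fresh medium, the added hours and FGF2 itself therefore cannot be told apart in this contrast. Separate cultures for the experiments are not stated, so the spread between them may be partly technical. The labelled cell identity could not be checked against stem cell markers, since no other probe is named.

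CXCL1 belongs to the chemokines that carry the residues Glu-Leu-Arg ahead of a CXC cysteine motif, and it draws neutrophils through the receptor CXCR2. It was first described as a growth-stimulating activity of melanoma cells. In many cell types its transcription is switched on within hours by inflammatory cytokines and growth factors, with NF-kappaB as a well-known activator. FGF2 acts through receptor tyrosine kinases that feed the ERK pathway, and it is a standard additive in human embryonic stem cell culture.

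In GRCh38.p14 the RefSeq gene lies on chromosome 4 at chr4:73869393-73871308, on the plus strand, and spans 1916 bases. The 250 bases ahead of its start, chr4:73869143-73869392, are shown because they are the regulatory stretch next to the transcript that the probe reports. Capitals mark the match to the NF-kappaB motif, searched as GGG, then any 2 bases, then TTTCC:
CXCL1 promoter: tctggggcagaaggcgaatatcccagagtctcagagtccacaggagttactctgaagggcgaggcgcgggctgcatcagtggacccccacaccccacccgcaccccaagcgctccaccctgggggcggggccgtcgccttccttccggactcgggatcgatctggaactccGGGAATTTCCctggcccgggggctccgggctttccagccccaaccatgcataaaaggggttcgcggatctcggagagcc
The match reads GGGAATTTCC and lies at bases -79 to -70 from the gene start. Both strands were searched, and 608 of 35116 RefSeq promoters of the same length (1.73%) held this motif. The Sp1 GC box GGGCGG occurred once, at bases -128 to -123, against a share of 42.6% of promoters, and did not overlap the first match. The exact letters TATAAA of the TATA box were not present, and 10.7% of promoters held them. Variants of the TATA box were not searched, so a promoter without one cannot be read from this. A match describes letters only, and no measurement of binding or of promoter activity was made in these samples.

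The CXCL1 probe was dim in starved cells and of middle to upper brightness after FGF2 return, in both experiments. The deposited signal, a mean intensity over the beads of the probe, was 188.0 and 196.3 in starved cells of experiments 1 and 2. It was 623.4 and 902.5 in re-stimulated cells. The dimmer re-stimulated array was 427.1 intensity units above the brighter starved array. How many other probes were ordered this way was not counted, and nothing is read from it, since this contrast selected the probe. Group means were 192.2 ± 5.87 in starved and 763.0 ± 197.4 in re-stimulated cells (SD, n = 2 per group). In order of level, starved experiment 1 was followed by starved experiment 2, re-stimulated experiment 1 and re-stimulated experiment 2. In bulk RNA, more cells with the transcript and more transcript per cell cannot be told apart.

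**Figure D1:**
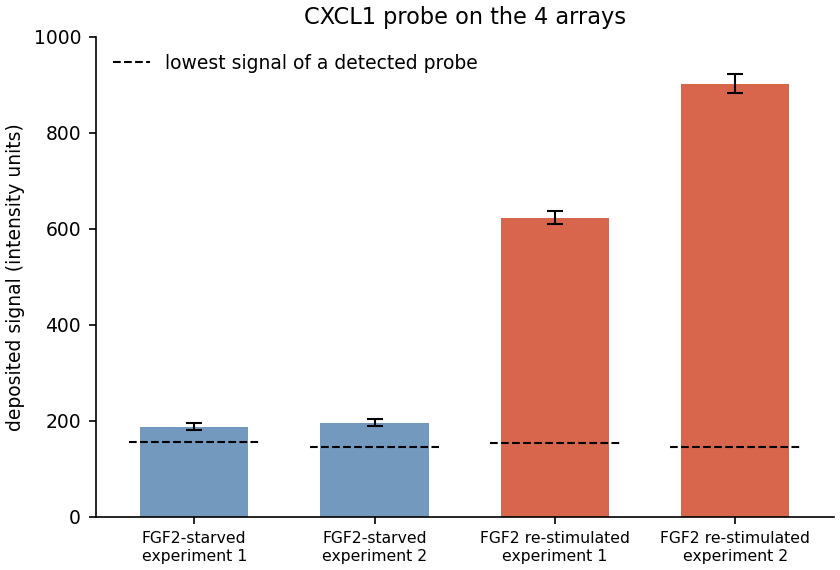
Bars give the deposited signal of the CXCL1 probe in intensity units on each of the 4 arrays, error bars the deposited bead spread on that array, and dashed lines the lowest signal of any detected probe there. Both starved bars end close above the dashed line, at 188.0 and 196.3, and both re-stimulated bars are far above it, at 623.4 and 902.5.

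In deposited signal, which includes background, the starved arrays lay close together and the re-stimulated arrays did not. The bead spread is the deposited measure of scatter among the beads of the probe, and the files do not say whether it is an SD or a standard error. It was 6.80 and 6.40 units on the starved arrays of experiments 1 and 2. On the re-stimulated arrays it was 12.8 and 19.8 units. Taking 1 bead spread either way, the starved arrays covered 181.2 to 194.8 and 189.9 to 202.7 and overlapped. The re-stimulated arrays covered 610.6 to 636.2 and 882.7 to 922.3 and did not. The difference between experiments was thus 8.30 units in starved cells and 279.1 units after FGF2 return, where experiment 2 was 1.45 times experiment 1. With background subtracted, as in the authors' processed values, experiment 2 was 1.23 times experiment 1 in starved and 1.56 times in re-stimulated cells. The starved arrays were thus less alike than their deposited signals. Relative to signal, the bead spread was 3.62% and 3.26% on the starved arrays, near the medians of 3.31% and 3.34% over their detected probes. On the re-stimulated arrays it was 2.05% and 2.19%, below the medians of 3.25% and 3.27%. Beads within an array share 1 RNA sample, so this scatter says nothing of the spread between cultures.

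In starved cells the probe was detected, but not by a wide margin. A probe counted as detected where its detection score, which runs from 0 to 1, was over 0.99. The score of CXCL1 was 0.999 on both starved arrays and 1 on both re-stimulated arrays. The lowest signal of a detected probe was 156.3 and 144.6 on the starved arrays, which left CXCL1 31.7 and 51.7 units above it. After FGF2 return it stood 469.1 and 756.2 units above the corresponding signals of 154.3 and 146.3. The 4 control probes named after bacterial genes, none of them detected, lay between 116.4 and 130.8 over all arrays. A large part of the starved signal of CXCL1 was therefore of the size seen on control probes.

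The place of CXCL1 among the detected probes of its array moved in the same direction as its signal. In starved cells it ranked 9414 of 11048 detected probes in experiment 1 and 8523 of 11124 in experiment 2, counted from the brightest. In re-stimulated cells it ranked 3855 of 10765 and 2438 of 10609. Put as shares, 14.8% and 23.3% of detected probes were dimmer than CXCL1 in starved cells, against 64.2% and 77.0% after FGF2 return. This move needs no background correction and no scaling between arrays. Probes differ in how brightly they bind their target, so the rank compares the probe with itself across arrays and does not order transcripts by abundance.

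**Figure D2:**
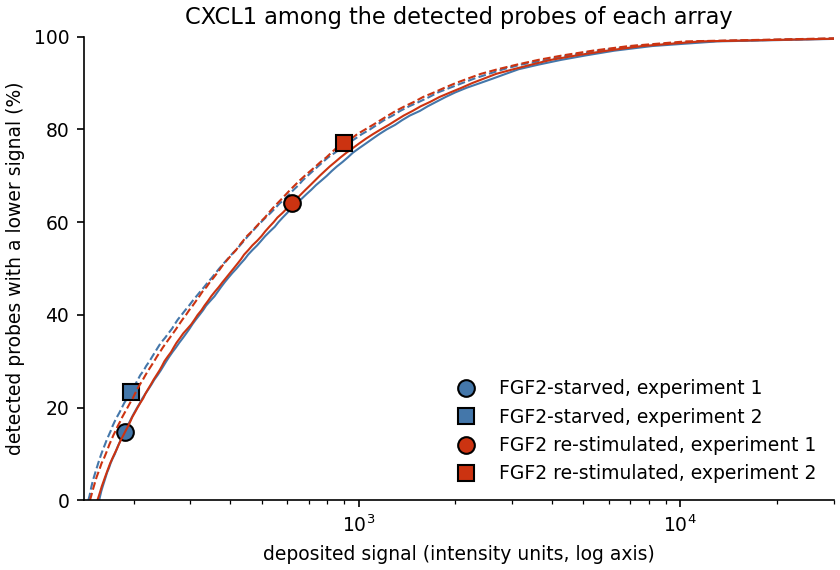
Lines give, for each array, the percentage of detected probes with a lower deposited signal (vertical axis) at each signal in intensity units (horizontal log axis), solid for experiment 1 and dashed for experiment 2. Filled symbols place CXCL1 on its array: 14.8% and 23.3% of probes lie below it in starved cells and 64.2% and 77.0% in re-stimulated cells. The lines nearly coincide within an experiment and differ between experiments. Median detected signals were 418 (starved) and 409 (re-stimulated) in experiment 1, and 369 and 372 in experiment 2. Part of the difference in share between experiments therefore comes from the lines.

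For comparison across probes, signals were background-corrected, quantile-normalized between arrays and put on the log2 scale. The normalized log2 level of CXCL1 was 6.17 and 6.62 on the starved arrays of experiments 1 and 2, and 8.98 and 9.81 on the re-stimulated arrays. Between a re-stimulated and a starved array the difference was 2.36 at the least and 3.64 at the most. Group means were 6.40 ± 0.32 and 9.39 ± 0.59 (SD, n = 2 per group). Within groups, experiment 2 exceeded experiment 1 by 0.45 in starved cells and by 0.83 in re-stimulated cells. Across the 10886 ranked probes (those detected on both arrays of the starved group, the re-stimulated group or both), the median absolute difference between the same arrays was 0.18 in starved and 0.15 in re-stimulated cells. The difference of CXCL1 between the re-stimulated arrays was larger than that of 99.0% of these probes, and between the starved arrays larger than that of 87.0%. Dim probes differed more between arrays. Among the 2722 ranked probes of lowest starved level, CXCL1 included, the medians were 0.21 in starved and 0.20 in re-stimulated cells. The 95th percentiles there were 0.72 and 0.66, against 0.45 and 0.83 for CXCL1. The smallest gap between the groups was 2.85 times the difference between the re-stimulated arrays. Nothing is read from this ratio, since the contrast between the groups selected the probe. The normalized difference between the starved arrays corresponds to 1.37-fold, although their deposited signals stood at a ratio of 1.04. This log2 difference of 0.45 depended on the processing. It was 0.24 with no scaling between arrays and 0.20 with no background correction.

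The CXCL1 level was higher after FGF2 return by 7.0-fold in experiment 1 and 9.10-fold in experiment 2, as log2 changes of 2.81 and 3.19. The mean log2 change was 3.0 ± 0.27 (SD, n = 2 experiments), or 7.98-fold. These values are part of what selected the probe, so they are given as a description with no test. In deposited intensity the differences were 435.4 and 706.2 units. The change ranked 8 in experiment 1, 2 in experiment 2 and 3 for the mean, among the 10886 probes, counted from the largest. The probe next above in mean change had 3.0 and the one next below 2.89, so the order near the top rests on small differences. The median change over all ranked probes was -0.04 on the log2 scale, and the 99th percentile of the mean change was 1.30.

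**Figure D3:**
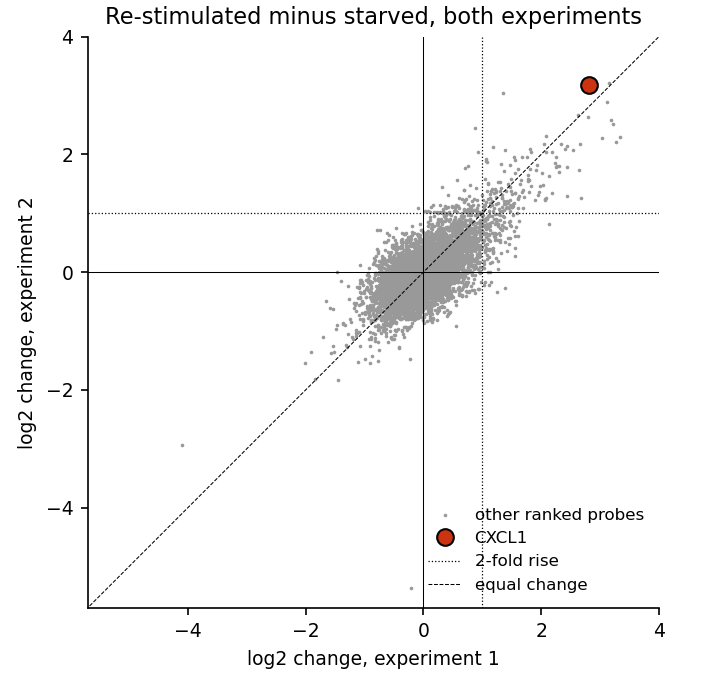
Each point is 1 of 10886 ranked probes, placed by its log2 change (re-stimulated minus starved) in experiment 1 on the horizontal axis and experiment 2 on the vertical axis. CXCL1, the filled circle at 2.81 and 3.19, lies above the dashed line of equal change and well past the dotted lines that mark 2-fold.

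A level at least 2-fold higher in both experiments was found for 149 of the 10886 probes (1.37%), and at least 4-fold higher in both for 19 (0.175%). CXCL1 is in both sets, and nothing is read from that, since the same contrast selected it. Of the 149, 123 were detected on all 4 arrays, as CXCL1 was, and the other probes could enter through the re-stimulated arrays alone. Among those 123, the normalized level was below that of CXCL1 for 23 in starved cells and for 75 after FGF2 return.

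CXCL1 differed from most of the strongly changed probes in which experiment gave the larger change. Its log2 change was larger in experiment 2 by 0.38, a ratio of 1.30 between the folds. Of the 149 probes that were 2-fold higher in both experiments, 55 (36.9%) had the larger change in experiment 2, and the median difference, experiment 2 minus experiment 1, was -0.15. The difference was at least as large as that of CXCL1 in 12 of the 149, CXCL1 included, over a range of -1.41 to 1.69. Each experiment holds 1 array per group, so this difference has no test. The change of CXCL1 was the larger in experiment 2 in all 11 settings of background, scaling, floor and source of values that were run. These settings reuse the same arrays, and lowering or removing the floor left the values of CXCL1 unchanged. They are therefore no independent support for the difference between experiments.

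The fold of CXCL1 depended on the background step, and its starved signal stood near background. The fold of the deposited signals, with nothing subtracted, was 3.32 in experiment 1 and 4.60 in experiment 2. In the authors' processed values, which had 115.8 to 124.5 units subtracted and were multiplied by 0.941 and 0.944 on the starved and by 1.07 on both re-stimulated arrays, CXCL1 stood at 59.8 and 73.3 in starved cells. Those values were 540.0 and 840.8 in re-stimulated cells, giving 9.03-fold and 11.5-fold. With the same amounts subtracted and the factors left out, the folds were 7.93 and 10.1. Subtracting a constant of 100 from every signal gave 5.95-fold and 8.33-fold, and a constant of 150 gave 12.5-fold and 16.3-fold, at which point 38.0 and 46.3 units of starved signal remained. Quantile normalization with no background correction gave 3.45-fold and 4.93-fold, so the level was then 4-fold higher in experiment 2 alone. The direction was the same under each of these treatments, and nothing is read from that, since this contrast selected the probe. Subtracting the same constant from both arrays cannot reverse their order. Over the 11 settings the size ranged from 3.45 to 9.03-fold in experiment 1 and from 4.93 to 11.5-fold in experiment 2. The rank of the mean change ranged from 3 to 9 over the same settings. The rank in experiment 1 ranged from 8 to 16, with the main setting at 8, and that in experiment 2 from 1 to 3.

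**Figure D4:**
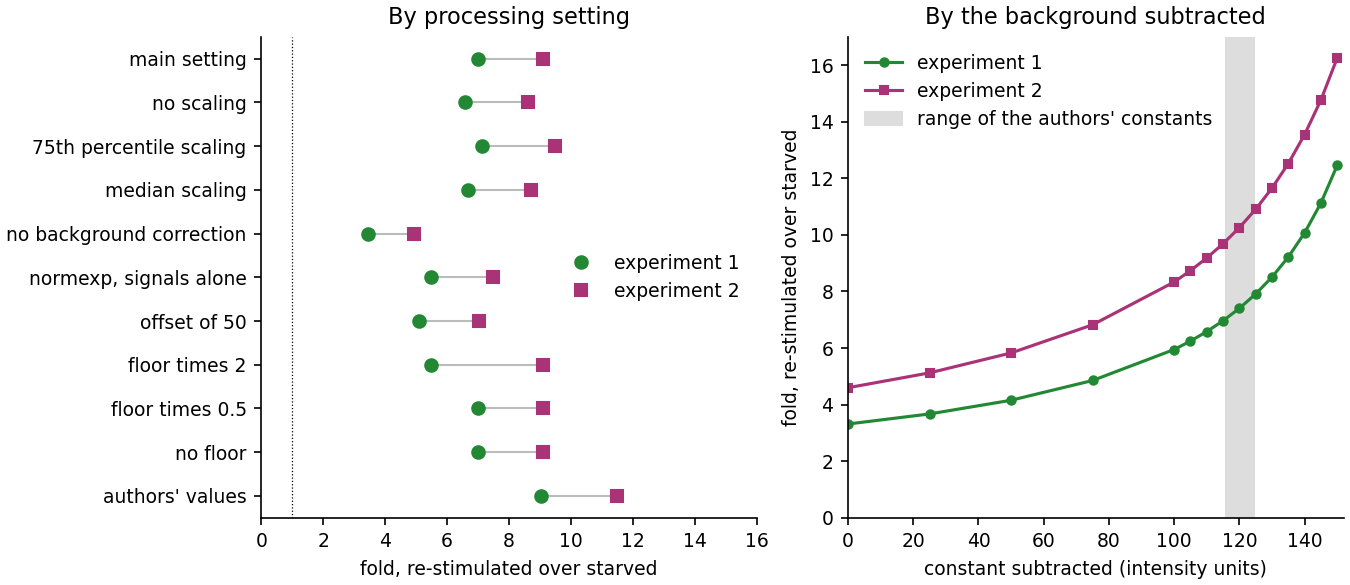
The left panel gives the fold of CXCL1, re-stimulated over starved, in each experiment (circles and squares) under 11 processing settings, and the right panel gives the fold of the deposited signals after subtracting a constant in intensity units from both arrays. With nothing subtracted the folds are 3.32 and 4.60, at 150 units they are 12.5 and 16.3, and experiment 2 is higher throughout.

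Each of the 4 arrays was left out in turn. The lower re-stimulated array lay above the higher starved array, so no omission could reverse the change of CXCL1. Only its size and rank could move. In these comparisons the mean of a group is set against the lone array of the other, so they mix the experiments. The intact pairs alone give the log2 changes of 2.81 and 3.19 above. With the starved array of experiment 1 or 2 left out, the log2 change was 2.77 or 3.20. With the re-stimulated array of experiment 1 left out it was 3.43, or 10.8-fold, and no probe exceeded it. With the re-stimulated array of experiment 2 left out it was 2.59, or 6.02-fold, and 9 probes had as large a change, against 2 with all arrays. The re-stimulated arrays therefore moved the rank of CXCL1 more than the starved arrays, which left 2 probes above it in each case. Total array signal moved slightly the other way: the mean deposited signal of a re-stimulated array was 0.928 and 0.929 times that of its starved array in experiments 1 and 2.

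Other probes had nearly the same pattern over the 4 arrays. Likeness was measured as the root mean square difference from CXCL1 of the normalized log2 levels, each probe centred on its own mean over the 4 arrays. The median of this measure over the ranked probes was 1.56. The most alike was GI_10047091-S at 0.24, whose deposited signals were 177.9 and 170.2 in starved cells and 683.4 and 699.7 in re-stimulated cells. Its log2 changes were 3.15 and 3.22. Its re-stimulated arrays were closer together than those of CXCL1. The next was GI_4505862-S at 0.26, with signals of 4075.8 and 4514.7 in starved cells and 22161.2 and 25140.3 in re-stimulated cells. Its log2 changes were 2.63 and 2.66. Neither identifier is paired with a gene in the files, and with 4 arrays in 2 groups any probe with a large and similar change in both experiments will score as alike.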

How the data were processed

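Linear amplification started from 300 ng of total RNA with 6 h of in vitro transcription and Cy3 label, per the labels' protocols. Software, per the submitters' processing notes, was BeadStudio 1.0. For each array the authors deposited an intensity per probe, its bead spread and a detection score, per the file headers. They also deposited a table of processed intensities, each column a straight line of that array's signals to within 0.10 units, with how its factors were chosen not given in the sources used here.

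Groups came from the sample titles. With limma 3.58.1 in R 4.3.3, signals were corrected by normexp with background mean and SD from the detection scores (offset 16), quantile-normalized, raised to a floor of 46.0 (5.52 on the log2 scale) and put on the log2 scale. Control probes entered the background step only. Ranks cover the 10886 probes that both arrays of the starved group, of the re-stimulated group or of both detected. Changes were taken within an experiment, since the labels name each starved sample as the control of the re-stimulated sample of its experiment. CXCL1 was chosen on this contrast, so no test was run. Precision is limited by having 4 arrays. The member, its lists and rules were chosen with earlier results of these data known. The rule for named probes took CXCL1 and the first 2 probes in likeness, as none is paired with a gene. For the same reason the planned limma fit, gene lists and marker lists were not used. The steps were tested on simulated data, with known folds set on probes that started well above background. No rise from a level as near background as that of starved CXCL1 was simulated. Promoter letters are RefSeq's, GRCh38.p14, matched by the symbol CXCL1 alone.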

Additional observations from a re-analysis of the deposited data

How the results depend on the processing

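The CXCL1 level was higher after FGF2 return in every alternative run, all of them made from the same 4 arrays that selected the probe. The changes moved by more than the SD between experiments (0.27) in the settings given here. The log2 change for the mean, experiment 1 and experiment 2 was 2.04, 1.79 and 2.30 with no background correction, 2.68, 2.45 and 2.90 with normexp on the signals alone, 2.58, 2.34 and 2.81 with an offset of 50, and 3.35, 3.18 and 3.52 with the authors' values, which change background and scaling together. It was 2.30, 2.05 and 2.54 with plain subtraction of 50 and no scaling. That setting was chosen after seeing the data, as were subtraction of 100, the authors' constants without their factors and the fit without pairing. With the floor at 2 times the main floor the change in experiment 1 was 2.46, since the starved value was then set by the floor. With 1 array left out, which breaks the pairing of experiments, the change ranged from 2.59 to 3.43, and 0 to 9 probes had a larger change. Otherwise 2 probes exceeded CXCL1, or 3 with the doubled floor, against 8 with no background correction, 5 with normexp on the signals alone and 6 with an offset of 50. Probes 2-fold higher in both experiments numbered 58 with no background correction and 99 with an offset of 50, against 149 in the main setting, 169 with no floor or 0.5 times the floor and 221 with the authors' values. Over all GI probes, detected or not, the share dimmer than CXCL1 was 61.3% and 65.0% in starved and 84.2% and 90.0% in re-stimulated cells, by construction of the larger set. Scaling, filter and lower floors moved no value beyond these limits. Apart from the floor and the larger set, the cause was not tested. The main change is paired, taken within experiments. With no replicate block, as the difference of the group means, it was the same 3.0, which the balanced design fixes.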
